A study of Mus musculus with 3 samples.

Results

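Dense clusters of KAP1 peaks are described here in C2C12, an established line of mouse myoblasts of C3H origin. Peaks of the KAP1 list were chained along each chromosome wherever the gap between them was 10 kb or less, and chains of 10 or more peaks were kept. This gave 24 clusters with 464 of the 19549 KAP1 peaks, or 2.37% of the list, in 1.16 Mb that make up 0.0450% of the genome span covered by the lists. The clusters lie on 12 chromosomes, and the 2 largest hold 155 of the 464 peaks. The members were chosen by the positions of the KAP1 peaks themselves, so their number, spacing, width and score are given as description with no test. Calls of H3K9me3 were not used in the choice.

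The cells were proliferating myoblasts grown in serum, with no genetic change or treatment named in the labels. One chromatin immunoprecipitation library was sequenced with a home-made rabbit antibody against KAP1 and one with a commercial antibody against H3K9me3, trimethylated lysine 9 of histone H3. A library made without antibody has no region list analysed here. With 1 library per antibody there is no spread between replicates, and the read depth of each library is unknown. Region lists hold no expression, so the myoblast label could not be checked against marker genes.

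KRAB zinc finger proteins bind DNA sequence by sequence and bring in KAP1 (TRIM28), a corepressor. KAP1 in turn recruits SETDB1, an enzyme that writes H3K9me3. It is best known for silencing endogenous retroviruses and for its place at zinc finger genes. Some of the places below are tandem arrays, in which a unit of sequence is repeated head to tail. The 5S rRNA genes, which RNA polymerase III transcribes to make a small RNA of the large ribosomal subunit, are such an array. Reads from repeated sequence can match many copies, and how such reads were placed is not given in the sources used here. Enrichment of the same places in the library made without antibody was not tested. Positions are in mouse build mm9, counted from 1. No annotation or genome sequence of that build was used here, so exons, introns and sequences are not given.

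The 24 clusters spanned from 21.2 to 142 kb, with a median of 43.5 kb, and held a median of 12.5 peaks. They differed widely in how they were filled. KAP1 peaks covered at least 75% of the span in 7 clusters, up to 98.5%, and less than 50% in 15, down to 12.8%. The median score per cluster ran from 84.9 to 2761, against a median of 106.1 for the whole list, whose scores run from 70 to 3213. It was at least 1000 in 7 clusters and below 200 in 14. A score of 1000 or more was given to 117 of the 464 clustered peaks and to 1.65% of all KAP1 peaks. Exactly 3100, the most frequent of the high scores, was given to 42 clustered peaks and to 0.506% of all peaks. The clustered peaks were 42 of the 99 with that score, and 36.2% of those that reached 1000. Whether 3100 is an upper limit of the scoring was not tested, so the rank of peaks at or above it is uncertain. Their median width was 810 bp (interquartile range 607 to 1353), against 724 bp in groups of 2 to 9 peaks and 586 bp in peaks with no other within 10 kb.

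**Figure D1:**
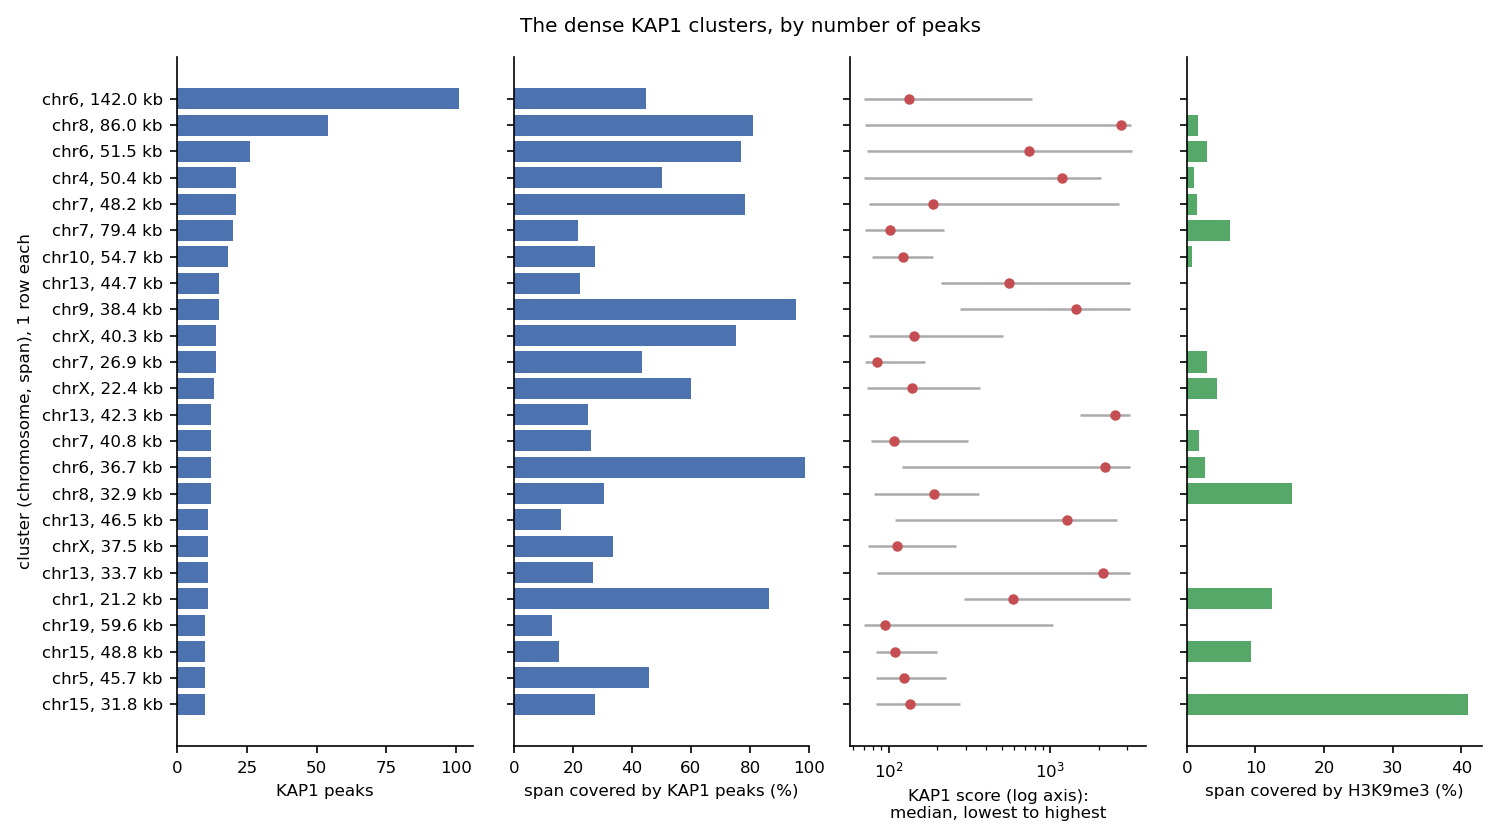
The 24 dense KAP1 clusters, 1 row each, ordered by number of peaks and named by chromosome and span. Bars give the number of KAP1 peaks, the percent of the span covered by KAP1 peaks and the percent covered by H3K9me3 regions; red points give the median KAP1 score on a log axis, with a line from the lowest to the highest. The number of peaks, the coverage and the score do not follow one order: the largest cluster, with 101 peaks, has a median score of 133.5, and the next, with 54, has 2761.

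The cluster on chromosome 8, from 126061992 to 126148013, was proposed as the array of 5S rRNA genes. It held 54 peaks in 86.0 kb, and they covered 81.1% of it. Scores ranged from 71.2 to 3160 with a median of 2761. A score of 1000 or more was given to 40 of the 54, and 21 had exactly 3100. Scores were high along the whole array: the median was 2761 in the first 18 peaks, 2062 in the middle 18 and 3100 in the last 18. The longest stretch between peaks measured 935 bp. The highest peak, at 126124400 to 126125960, had a width of 1561 bp, and the lowest, at 126073444 to 126074026, was 583 bp wide.

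The peaks of this array stood at a regular distance. Midpoints were tested against every trial period from 800 to 8000 bp, and alignment is given as the mean resultant length, which is 0 when midpoints fall evenly over the period and 1 when all fall at the same point of it. The best period was 1697 bp, with a mean resultant length of 0.56 over 54 peaks. The next best, 849 bp, was nearly an even division of it and reached 0.52. Of the 53 distances between neighbours, 32 were within 20% of 1697 bp, and 9 measured between 0.4 and 0.6 of it. When each midpoint was weighted by its score, the mean resultant length at 1697 bp was 0.77. In the 50% of peaks that scored highest the best period was 1698 bp with 0.83. The first 27 peaks gave 1696 bp with 0.75. In the last 27 the best period was 852 bp with 0.51, and alignment to 1697 bp was 0.38.

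**Figure D2:**
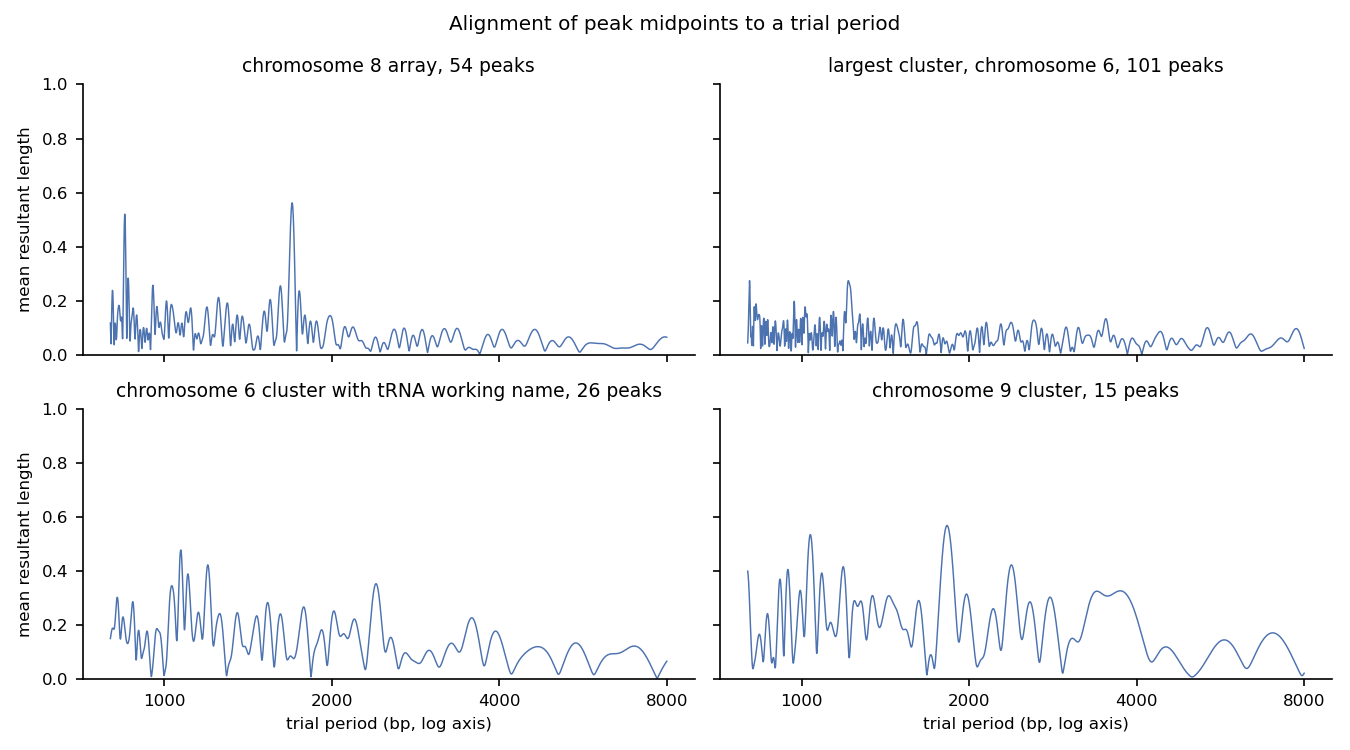
Mean resultant length (vertical axis, 0 to 1) of KAP1 peak midpoints against the trial period in bp (log axis) at the 4 proposed repeat loci. The chromosome 8 array has a sharp maximum at 1697 bp and another at 849 bp; the maxima of the other panels are lower or stand among others of similar height, and panels with fewer peaks have a higher floor.

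Folding the array at 1697 bp divided its peaks by their position in that period. The units below are windows of 1 period fitted to the peak midpoints, not repeats read from sequence. Within 0.25 of a period of the mean position lay 45 of the 54 peaks (83.3%). At their own best periods the chromosome 9 cluster gave 80.0% and the proposed repeat loci on chromosome 6 gave 76.9% and 66.3%. No unit held more than 1 such peak at any of these loci, so this is not particular to the array. The array spans 50 units at this period. Of these, 45 held 1 such peak, and the centre of each of the other 5 was covered by a peak of 2815 to 3957 bp that reached across units. All 50 units were therefore covered at the same point of the period, in an array of which KAP1 peaks cover 81.1%. The 45 peaks had a median score of 3058 (218.3 to 3160), and 38 of them scored 1000 or more.

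The other 9 peaks fell between these positions. Of them, 7 were narrower than a unit, at 394 to 859 bp, and scored from 71.2 to 394.6. Their midpoints stood together, between 0.36 and 0.42 of a period before the mean position. They are 7 of the 9 peaks of the array that scored 394.6 or less. Each ended close before the next peak began, and the widest such space ran from 126128362 to 126128508. Whether they are separate from the next call was not tested. The remaining 2, with widths of 2815 and 3059 bp and scores of 2052 and 3100, were wider than a unit, so their midpoint does not mark a point in it.

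**Figure D3:**
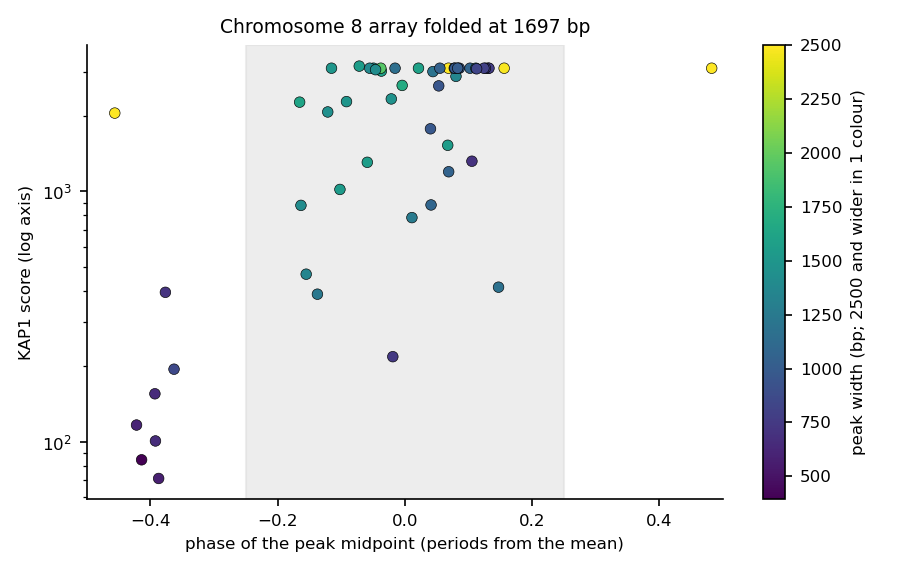
The 54 KAP1 peaks of the chromosome 8 array folded at the period of 1697 bp: phase of the midpoint in periods (horizontal), score on a log axis (vertical) and width in bp (colour). The 45 peaks in the grey band of 0.25 periods on either side of the mean include 38 with a score of 1000 or more; a group of 7 narrow peaks at the left scores 394.6 or less.

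In the RefSeq gene table of the later build GRCm38.p6, 42 of the 69 genes with a 5S symbol (n-R5s and a number) are on chromosome 8. They include an unbroken run of 37 neighbouring entries that carry a 5S symbol or the type rRNA, next to Gas8. The table's positions cannot be carried over to mm9, so the run was not placed on the array.

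The chromosome 8 array held only narrow H3K9me3 regions. It held 6 H3K9me3 regions, from 56 to 529 bp wide with scores of 16 to 57, against a median width of 607 bp and a median score of 53 in that list. Together they covered 1.68% of the array, against 1.54% of the whole span of the lists. They touched 5 of the 54 KAP1 peaks (9.26%), against 44.1% of all KAP1 peaks. Most peaks of the array, 40 of 54, scored 1000 or more. At such scores the share was 4.69% in groups of 2 to 9 peaks and 8.97% in single peaks, so the array was not low for its scores. Between 1.99% and 33.4% of those 5 peaks was covered. Of the 5, 3 had a KAP1 score of 3100, at 126144955, 126133340 and 126118172. The others, at 126111242 and 126072283, scored 2052 and 1196. On each side, 1 H3K9me3 region lay within 100 kb, the nearer one 11.9 kb beyond the right edge, with 3282 bp. KAP1 peaks were also few outside the array, with 0 within 100 kb on the left and 1 on the right.

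The largest cluster lay on chromosome 6, from 114444370 to 114586342, with 101 peaks in 142.0 kb. Its peaks had a median width of 570 bp, against 1181 bp in the chromosome 8 array, and covered 44.8% of the span. The median score was 133.5, the lowest 70.95 and the highest 771.9, so none reached 1000. The 3 highest peaks were at 114448876 to 114450202 (score 771.9), 114446490 to 114448246 (552.8) and 114558647 to 114559671 (541.2). The first 34 peaks had a median score of 155.8 and a median width of 724 bp, the middle 34 had 117.0 and 542 bp, and the last 33 had 133.5 and 496 bp.

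A proposal names this cluster as 4.5S RNA genes, a tandem array of a short rodent RNA. Its peaks aligned less well to any 1 period than those of the chromosome 8 array. The best period, 1213 bp, had a mean resultant length of 0.27 and was tied to 2 decimals with 806 bp. It is close to the median distance between neighbours, 1216 bp, of which 31.0% lay within 20% of that median. On chromosome 8 60.4% did. Some distances in the chromosome 6 cluster were close to 2 times 1213 bp, such as 2385 and 2387.5 bp. Their number was not taken. Trial periods of that length were part of the scan, and none aligned better than 1213 bp. Whether a repeat unit of that length underlies the cluster was not tested. Both parts of the cluster by position gave a similar period, 1202 bp for the first 50 peaks and 1226 bp for the last 51. After folding, 67 of the 101 peaks were in phase, with a median score of 133.5, and the 34 others had 136.0. On chromosome 8 the same medians were 3058 and 155.2.

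The gene table of GRCm38.p6 also bears on the name. It holds 1 gene called Rn4.5s, on chromosome 6 between Gm40369 and Gm40367. It is separated by 21 genes from n-TCgca57, the next of the 48 cysteine tRNA genes that the table lists on that chromosome. In mm9 the cluster of 101 peaks and the one proposed as tRNA genes are 66.7 Mb apart. If the tRNA genes meant are those cysteine genes, the names proposed for these 2 clusters do not both go with the gene order of that table. No gene was placed on either cluster, and the cluster of 101 peaks is called here by its position.

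No H3K9me3 region lay in those 142.0 kb. The nearest were 51.1 kb to the left and 64.3 kb to the right, and 3 and 1 lay within 100 kb on these sides. KAP1 peaks stopped as sharply, with 2 within 100 kb on the left and 0 on the right, where the next stood 252.4 kb away.

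**Figure D4:**
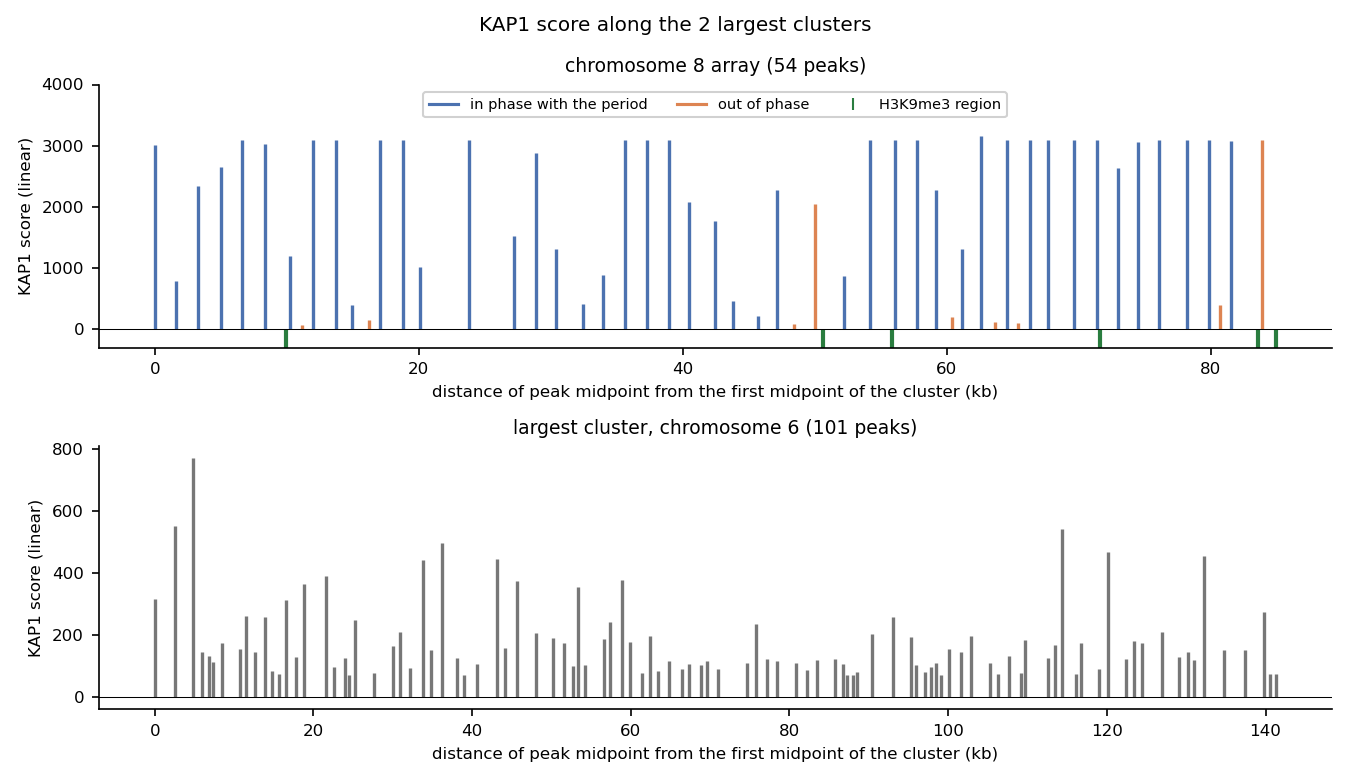
KAP1 score (vertical, linear axis) of each peak against the distance of its midpoint from the first midpoint of the cluster in kb. The upper panel is the chromosome 8 array, with in-phase peaks in blue, the others in orange and 6 H3K9me3 regions as green ticks; the lower panel is the chromosome 6 cluster of 101 peaks, where no score exceeds 771.9 and no H3K9me3 region was called.

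On chromosome 6 near 47 Mb a pair of clusters stood 49.9 kb apart. The one proposed as tRNA genes ran from 47687006 to 47738462, with 26 peaks in 51.5 kb that covered 77.1% of it. Genes for transfer RNA are short, have their promoter inside the gene and are transcribed by RNA polymerase III. Scores in this cluster ran from 73.6 to 3213, the highest of the whole KAP1 list, with a median of 742.5. That highest peak stood at 47706467 to 47708140. The lowest was at 47716321 to 47716773. The median score was 3100 in the first 9 peaks, 366.4 in the middle 9 and 761.8 in the last 8. The best period of 1071 bp had a mean resultant length of 0.48. The last 50% of peaks by position gave 1078 bp with 0.69, and peak starts gave 2132 bp, about 2 times as long. The first 50% by position gave 2420 bp and the 50% highest scores 1608 bp, so the best period depended on which peaks were used.

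The neighbouring cluster, from 47600322 to 47637062, held 12 peaks that covered 98.5% of 36.7 kb. The longest stretch between its peaks was 127 bp, so the 12 calls formed a nearly continuous block. A score of 3100 was given to 6 of them, with widths from 2741 to 7272 bp, and the other 6 were 835 to 1378 bp wide and scored from 121.3 to 1271. The pair held H3K9me3 as small regions, 7 of 8 of them wholly within KAP1 peaks and the other covered to 94.5%. With KAP1 peaks over 77.1% of the cluster of 26 peaks and 98.5% of the block, most places inside lie in a peak. The H3K9me3 regions numbered 5 in the cluster of 26 peaks, of 182 to 412 bp, and 3 in the block, of 139 to 533 bp. All 8 touched a KAP1 peak, 7 in all. In the cluster of 26 these peaks began at 47688697 and 47697358 (both with a score of 3100), 47722759 (610.0), 47718336 (288.1) and 47704140 (183.9). In the 4 peaks of the pair with H3K9me3 that had a score of 3100, H3K9me3 covered from 6.45% to 16.8% of the peak, and in the other 3 from 31.5% to 55.5%.

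The cluster on chromosome 9, from 2999970 to 3038347, begins at the first position that either list covers on that chromosome. The first bases of mouse chromosomes lie next to the centromere, where satellite repeats begin. It held 15 peaks that covered 95.5% of 38.4 kb, with no stretch between them above 327 bp. The median peak width of 2789 bp was the largest of the 24 clusters, and the widest peak here measured 5529 bp. Scores ran from 277.7 to 3100 with a median of 1437. The first 6 peaks included 1 with 3100, and the other 5 scored between 277.7 and 762.2. The next 5, from 3011356 to 3030037, scored from 2144 to 3100. No H3K9me3 region lay inside, and the first one stood 9.14 kb beyond the right edge, followed by 4 more within 100 kb. The best period, 1825 bp, had a mean resultant length of 0.57 over 15 peaks. Among the 22 clusters of 10 to 26 peaks the best value ran from 0.46 to 0.75, so a value of this size came with a small number of peaks at any of these places.

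Among the other clusters, a continuous one lay on chromosome 1, from 172993800 to 173014959. Its 11 peaks covered 86.5% of 21.2 kb and had a median score of 585.3 (291.0 to 3100). It held the highest share of H3K9me3 among the clusters with a median score above 200, at 12.4% of its span. Of its peaks 4 overlapped H3K9me3, and the region at 173008783 to 173009841 scored 209.

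Chromosome 13 held 4 clusters between 21325658 and 23623367, sparsely filled and with high scores. They began at 21325658, 21988495, 23517138 and 23589711 and held 11, 15, 12 and 11 peaks. KAP1 peaks covered between 16.0% and 26.8% of the span, and the median width was between 619 and 764 bp. The median scores, in the same order, were 1277, 558.6, 2521 and 2113. The lowest of the 12 peaks in the cluster from 23517138 scored 1531. None of the 49 peaks overlapped H3K9me3, and no H3K9me3 region lay inside any of the 4 clusters. In the cluster of 15, the highest peak, at 22031755, scored 3100 and the lowest, at 22025577, scored 211.4. Within 100 kb each cluster had H3K9me3 on one side and none on the other, with 3, 2, 2 and 1 regions. These clusters shared high scores with the chromosome 8 array but were covered far less.

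On chromosome 4, 21 peaks between 88402650 and 88453011 had a median score of 1183 (70.9 to 2054) and covered 50.2% of the span. The highest stood at 88448368. The lowest, at 88438170, stood between peaks of 1240 and 1625. A single H3K9me3 region of 500 bp lay in the cluster, between KAP1 peaks, and 7 lay within 100 kb on the left and 2 on the right. The cluster from 67002173 to 67050359 on chromosome 7 held the widest KAP1 peak of all clusters, 11155 bp from 67006328, with a score of 2665. Its other 20 peaks scored at most 1103, and its median was 188.8. Its 3 H3K9me3 regions all stood within 5.83 kb of its right edge, and 1 touched a KAP1 peak, at 67046823 (score 170.3). Its lowest peak, at 67050123, scored 76.1. Beyond that edge the next H3K9me3 region lay 255.4 kb away, while 2 stood within 100 kb on the left.

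Further clusters had low scores. On chromosome 7, 3 clusters lay between 15735519 and 16045581, with 12, 20 and 14 peaks and median scores of 107.9, 101.3 and 84.9. Of their 46 peaks 6 overlapped H3K9me3. In the cluster of 20 the highest peak, at 15797766, scored 220.1 and the lowest, at 15792803, scored 71.5. Its 4 peaks with H3K9me3 began at 15865344 (203.3), 15854581 (198.0), 15803112 (89.0) and 15809464 (83.4). The chromosome 10 cluster, from 99793457 to 99848194, had 18 peaks that scored from 79.2, at 99822622, to 187.3, at 99805940. The peaks at 99808422 (106.5) and 99814291 (81.4) overlapped H3K9me3. Its best period of 2552 bp had a mean resultant length of 0.73. A group of 3 on the X chromosome had median scores between 113.4 and 142.8. That from 92122260 to 92162576 had broad peaks, with a median of 1930 bp, over 75.1% of its span. It was the 1 cluster of the 24 with no H3K9me3 region inside or within 100 kb, the nearest being 105.9 kb away. The X cluster from 166424636 held 3 H3K9me3 regions. That from 4762388 held none, with 4 within 100 kb on the left and 8 on the right.

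The last 5 clusters held 10 to 12 peaks each. On chromosome 15 the cluster from 76004273 carried the largest H3K9me3 region of any, 14500 bp with a score of 2232, which covered 41.0% of the cluster and took in 3 KAP1 peaks whole. The cluster from 77693246 on the same chromosome had 4 of 10 peaks with H3K9me3. On chromosome 8 the cluster from 57974982 held 6 H3K9me3 regions over 15.3% of its span. The clusters from 5786349 on chromosome 19 and from 14905092 on chromosome 5 held none. On chromosome 19 the median score was 95.2, and 1 of the 10 peaks reached 1039.

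The next comparison asked whether H3K9me3 went with the clusters as it did with other KAP1 peaks. Of the 464 clustered peaks 36 overlapped an H3K9me3 region by at least 1 bp (7.76%, 95% Wilson interval 5.66 to 10.6), where 44.1% of all KAP1 peaks did. With at least 50% of the peak covered the number was 17 (3.66%, interval 2.30 to 5.79), against 37.9%. In groups of 2 to 9 peaks 61.8% overlapped, and among single peaks 25.9%. These intervals treat peaks as independent, which neighbouring peaks are not, so they are likely too narrow. With 1 library per antibody they hold no spread between replicates, and no p-value is given. Counted as clusters, 10 of 24 (41.7%) had no H3K9me3 region inside, against 28.5% of all chains of 2 or more peaks. The dense clusters are longer, with a total of 1.16 Mb for 24, against 21.5 Mb for 3631 groups of 2 to 9.

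The low share held at all KAP1 scores in the clusters. It was 7.95% (interval 3.91 to 15.5) for scores from 70 to 100, 6.04% from 100 to 200, 7.27% from 200 to 1000 and 10.3% (interval 5.96 to 17.1) for 1000 and above. In groups of 2 to 9 the share rose over the same ranges, from 44.3% to 66.3% and 83.3%, and was 4.69% (interval 2.17 to 9.85) at 1000 and above. Single peaks gave 19.8%, 29.4%, 52.0% and 8.97% (interval 4.42 to 17.4). At a score of 1000 or more the share was low in all 3 kinds of peak. Below it, the share in the dense clusters was the lowest in each range. The largest cluster gave 101 of these lower-scoring peaks, none with H3K9me3, and the ranges were not split by cluster. Without the largest cluster the share over all scores was 9.92%.

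Most H3K9me3 regions inside the clusters were small. There were 46 in 14 clusters, with a median width of 359.5 bp and a median score of 38.5, and 11 of them were wider than the list's median of 607 bp. They touched a KAP1 peak in 34 cases, where KAP1 peaks covered 45.6% of the clusters by length. By length, H3K9me3 covered 3.29% of the clusters, and 2.23% without the chromosome 15 cluster that holds the 14500 bp region. Its share was 1.54% over the whole span of the lists, 42.1% within groups of 2 to 9 and 20.1% within single peaks. Clusters and groups include the gaps between their peaks, and single peaks have none. Within the KAP1 peaks alone, H3K9me3 covered 3.49% in the clusters, 57.8% in groups of 2 to 9 and 20.1% in single peaks.

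The flanks of the clusters had about the same amount of H3K9me3 as those of other KAP1 peaks. Within 100 kb on either side H3K9me3 covered 2.02% for the clusters, 2.10% for groups of 2 to 9 and 2.04% for single peaks. The first 5 kb were covered to 1.67% beside the clusters, 5.28% beside groups of 2 to 9 and 5.16% beside single peaks. From 10 to 20 kb out the clusters had the highest share, with 3.61%, against 2.01% beside groups and 1.94% beside single peaks. These shares were not split by cluster, and that of the first 5 kb beside the clusters rests on few regions. Apart from regions that ran over an edge, H3K9me3 within 5 kb stood only beside the cluster from 77693246 on chromosome 15, at 2.73 and 4.84 kb. At least 1 H3K9me3 region lay within 100 kb in 23 of the 24 clusters, and on both sides in 15. Unlike the shares, these counts include H3K9me3 regions inside a neighbouring cluster, as on the right of the chromosome 6 cluster from 47600322. Of the 10 clusters with none inside, 9 had one in a flank and 4 on both sides.

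**Figure D5:**
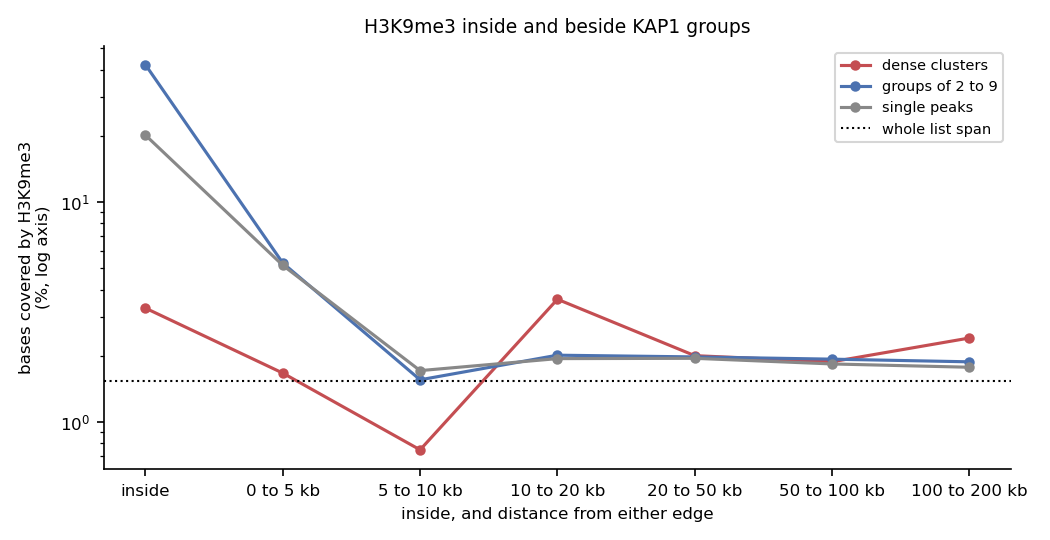
Percent of bases covered by H3K9me3 regions (log axis) inside dense clusters, groups of 2 to 9 KAP1 peaks and single peaks, and by distance from either edge in kb; the dotted line is the whole list span, 1.54%. Coverage inside is 3.29% for dense clusters, 42.1% for groups and 20.1% for single peaks, from 10 to 20 kb out it is 3.61%, 2.01% and 1.94%, and from 20 kb outward the 3 lines lie between 1.77% and 2.41%. The inside of a cluster or group takes in the gaps between its peaks.

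The numbers in the peak names show how much of each cluster was left out of the list. They follow position along each chromosome and run to 36417, so 16868 numbered calls (46.3%) are not in the list. Within the clusters 84 of 548 numbered calls (15.3%) are absent. The share differed between them: 25 numbered calls were absent beside the 101 listed in the largest cluster, 5 beside 54 in the chromosome 8 array and 0 beside 15 on chromosome 9. No call was absent in 5 clusters. A run of close peaks chosen for being unbroken tends to have few absent calls, so this is no finding about the clusters as a kind.

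Pooled over chains, peaks just outside the limit of 10 overlapped H3K9me3 more often than those just inside, but single chains did not all follow this. In the 4 chains of 10 peaks 7 of 40 peaks overlapped H3K9me3 (17.5%), and in the 4 of 11 peaks 4 of 44 did (9.09%). In the 5 chains of 9 peaks, just outside, 37 of 45 did (82.2%), and in the 5 of 8 peaks 15 of 40 (37.5%). Of the chains of 8 peaks, 2 held no H3K9me3 region. Among them was a chain on chromosome 13 from 22107391 with a median score of 2083. The chains of 9 spanned 14.0 to 21.2 kb and those of 10 spanned 31.8 to 59.6 kb. The longest gap inside a cluster was 9958 bp, and the shortest from a cluster to a peak in none was 10.6 kb. A pair of clusters on chromosome 7 stood 10.2 kb apart.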

How the data were processed

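KAP1 and H3K9me3 were mapped by chromatin immunoprecipitation and sequencing in 1 library each. The submitters' processing notes name Bowtie2 2.2.1 and build mm9. Each list holds positions, a name and a score per region, as the authors deposited it. The meaning of either score, the caller settings, the control and the handling of reads that match several places were not given in the sources used here. KAP1 peak names have the form that MACS writes, per the file itself. Depth is unknown, so no detection limit was set.

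Peaks were chained at gaps of 10 kb or less and chains of 10 or more were kept. Flanks of 100 kb were clipped to the span covered by the lists. Bases of other clusters were left out of the covered shares, but not out of the counts of regions in a flank. Periods from 800 to 8000 bp were scanned in steps of 1 bp, and the scan, chaining and overlap were tested on simulated data. The 4 loci proposed as repeats and the 5 other clusters with the most peaks are described with their highest and lowest peaks, and the other clusters in brief. Members, lists and score bands were chosen with earlier results of these data known. Shares have 95% Wilson intervals; no p-value was computed. Alternatives covered gap, number of peaks, score, overlap, flank and period. Python 3.11.15, numpy 2.4.6, pandas 2.3.3, scipy 1.17.1 and matplotlib 3.10.9 were used.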

Additional observations from a re-analysis of the deposited data

How the results depend on the processing

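Of 55 alternative values, 33 stayed within 1.5 times the value, the interval of the share or 10% of the period, and 22 did not. With a gap of 5 kb there were 15 clusters, 5 of them with no H3K9me3 inside. With at least 15 peaks there were 9 clusters, 291 peaks and 3 with none inside, and with KAP1 peaks limited to the higher-scoring 50% there were 15 clusters and 300 peaks. The share of clustered peaks with H3K9me3 was 11.4% at a gap of 20 kb, 16.0% with at least 8 peaks, 13.8% within 1 kb, and 3.66% both with 50% of the peak covered and in the upper 50% of H3K9me3 regions, where 16 clusters had none inside. The period of the chromosome 8 array was 852 bp in the last 50% of its peaks, a split chosen after seeing the data. For the chromosome 6 cluster of 26 peaks it was 2132 bp from peak starts, 1710 bp as the median distance, 1608 bp in the upper 50% by score and 2420 bp in the first 50% by position. On chromosome 9 these were 3718, 2406.5, 3728 and 1495 bp. The values by score or position use fewer peaks, while those from peak starts and the median distance use every peak of the cluster, and the cause of the moves was not tested. No paired analysis was possible because each antibody has 1 library, and none could be left out. Depth is unknown.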
